A study of Caenorhabditis elegans with 4 samples.

Results

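The T26A5.5 peaks on chromosome X are the 572 X peaks of the series-wide peak list that overlapped, by at least 1 bp, a peak of the replicate 1 list and a peak of the replicate 2 list. They were chosen from 1372 X peaks of that list and are 9.38% of the 6097 peaks that met the same rule on all 6 nuclear chromosomes (Wilson 95% interval 8.68 to 10.1%), which are called supported peaks here. The lists came from chromatin immunoprecipitation and sequencing (ChIP-seq) of T26A5.5 in early embryos of the wild-type Caenorhabditis elegans strain N2, collected from gravid adults by bleaching, in a population given as mixed males and hermaphrodites at 20 °C. The series has 2 ChIP samples and 2 input samples, with no other genotype or treatment, so all peaks describe 1 condition. Each ChIP sample has 1 list, and the inputs carry no deposited values of their own. The lists hold intervals and scores without read counts, so the depth behind them is unknown. The labels do not state whether the replicates were separate cultures.

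T26A5.5 is the sequence name of jhdm-1, which encodes a relative of the KDM2 family of JmjC-domain proteins, enzymes known in mammals for removing methyl groups from histone H3 lysine 36. The X chromosome of C. elegans differs from the autosomes in several ways. Hermaphrodites carry a pair of X chromosomes and males a single copy, and in hermaphrodites the dosage compensation complex lowers X transcription in embryos. The X is also largely silent in the germline, and its gene content and repeats are spread more evenly from end to end than those of the autosomes, whose arms and centres differ.

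Supported peaks were sparse on X, at 32.3 per Mb over its 17.7 Mb, and the 5 autosomes ranged from 41.8 to 91.7 per Mb. They covered 416 kb, or 2.35% of the X, against 3.28 to 6.62% of each autosome. Because several series-wide peaks can sit in the same replicate peak, replicate peaks were also counted once each. The 572 X peaks had 320 distinct replicate 1 partners and 330 distinct replicate 2 partners, a partner being the highest-scored overlapping peak of that list. This gave 18.1 and 18.6 partners per Mb of X. The autosomes had 23.8 to 49.1 and 25.1 to 52.3. The number of members per replicate 1 partner was 1.79 on X and 1.73 to 1.87 on the autosomes, so X had fewer separate regions and not fewer peaks in each.

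X was set against the 5 autosomes with an exact two-sided permutation test over the 6 chromosomes. Its smallest possible p is 0.167, so no difference between X and the autosomes can pass a threshold of 0.05 in this design, and X is described by whether it lay outside the range of the 5 autosomes. Of 43 quantities compared this way, the lowest p adjusted by Benjamini-Hochberg was 0.299. The density of supported peaks reached the smallest exact p, as did the densities of both kinds of partner (p = 0.167 each, adjusted 0.299). Read coverage of X is not known in this mixed population, and fewer reads on X cannot be told apart from less binding.

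In 250 kb bins, X held a median of 8 supported peaks per bin, a mean of 8.06 (SD 4.99, 71 bins), and a range from 0 to 23. The densest bin was X 4500001 to 4750000, with 23 supported peaks, 12 replicate 1 peaks and 24 replicate 2 peaks (WormBase WS220 coordinates throughout). The next were X 2000001 to 2250000 with 22, X 10500001 to 10750000 with 20, X 11250001 to 11500000 with 18 and X 10000001 to 10250000 with 16. The typical peak of these peak-rich bins was low-scored, although they also held high-scored peaks such as X 4523689 to 4526899 (98.28). Their median series-wide scores were 13.64, 5.645, 7.045, 6.855 and 5.23 in the same order, below the X median of 18.17. The 22 supported peaks of X 2000001 to 2250000 shared only 4 replicate 1 partners.

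No supported peak was found in 3 of 71 bins, or 4.23% of X, against 1.73% of the 250 kb bins of all 6 chromosomes. This share was 0 to 4.76% on each autosome, so X lay within their range. The empty bins of X were X 1 to 250000, X 1500001 to 1750000 and X 13250001 to 13500000. None of them was empty in the 3 lists, since they held 20, 11 and 14 series-wide peaks. Replicate 1 had 5, 1 and 1 peaks there and replicate 2 had 4, 7 and 6. The next sparsest bins were X 3750001 to 4000000, X 6750001 to 7000000 and X 9500001 to 9750000, with 1 supported peak each. In all, 20 bins held at most 4 supported peaks and 22 held 10 or more. When a peak of either replicate list alone was enough for support, no bin of X was empty (0%). Counts in neighbouring bins were weakly related, with a Pearson r of 0.13 on X and -0.04 to 0.24 on the autosomes, given as a description over bins.

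**Figure D1:**
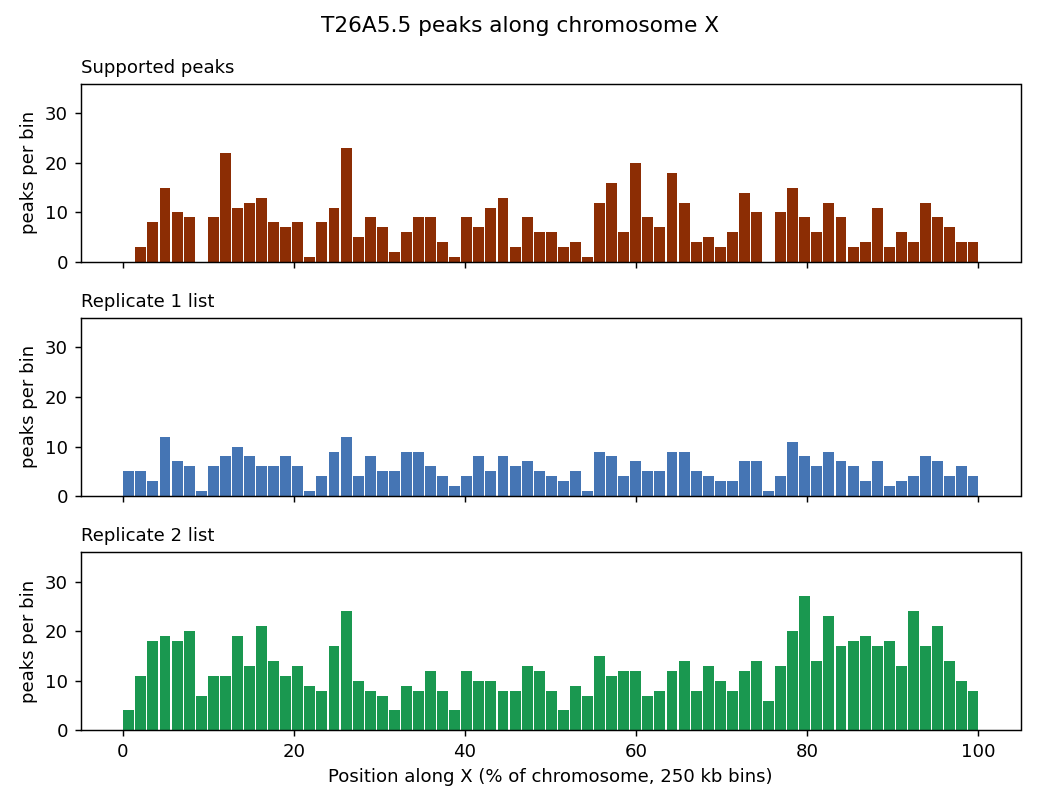
Bars give the number of peaks per 250 kb bin (y axis) along chromosome X (x axis, % of its length) for supported peaks, replicate 1 peaks and replicate 2 peaks. Supported peaks reach 23 in a bin and are at 0 in 3 bins, and replicate 2 peaks are dense toward both ends, most of all toward the right end.

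The replicate lists differed most along the right part of X. With X cut into 10 equal segments numbered from the left end, replicate 2 had 75.1 peaks per Mb in segment 9, its highest value, and replicate 1 had 23.7 there. In segment 4 replicate 2 had 29.3, its lowest, and replicate 1 had 21.4. Replicate 1 stayed between 20.3 and 28.8 peaks per Mb in all 10 segments. Supported peaks ran from 20.9 per Mb in segment 4 to 46.3 in segment 2, with 28.2 in segment 9. Across the 71 bins of X, the counts of the replicate lists had a Pearson r of 0.45 and a Spearman rho of 0.42. On the autosomes the same values were 0.67 to 0.76 and 0.63 to 0.77. Bins share the mappability and gene content of their stretch of chromosome, so these values are descriptions without a test.

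Both ends of X were without supported peaks for longer than the ends of any autosome. The first supported peak, X 376717 to 377206, began 377 kb from the left end, and the 5 autosomes had their first between 3.53 and 111 kb. It had a series-wide score of 57.06, a replicate 1 score of 70.01 and a replicate 2 score of 3100. The stretch to its left held 33 series-wide peaks, 7 replicate 1 peaks and 9 replicate 2 peaks, but no series-wide peak there met both. The last supported peak ended 117 kb before the highest peak end on X. On the autosomes this distance was 0.404 to 22.5 kb. The chromosome length was taken as that highest peak end, because no genome of this build was used.

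Neighbouring supported peaks on X were mostly either close together or far apart. Of 571 gaps, 233 were under 1 kb (40.8%, Wilson 95% interval 36.8 to 44.9%), against 42.4% of the gaps of all 6 chromosomes and 41.0 to 44.5% on each autosome. Such short gaps were a smaller share on X than on every autosome under 4 of 5 other settings of support and score. Among all series-wide peaks they made up 31.2% on X and 39.2 to 43.9% on the autosomes. With 50% of each peak covered, X lay within the autosomal range. In the main set the X differed more at intermediate and long distances. Gaps from 1 to 20 kb made up 22.6% on X and 33.0 to 40.9% on the autosomes, and gaps of 20 kb or more made up 36.6% on X and 15.7 to 26.1% on the autosomes. Among gaps of at least 1 kb the median was 33609 bp on X, against 7681 to 15504 bp on the autosomes (exact permutation p = 0.167, adjusted 0.299). Gap lengths depend on the density of supported peaks. Chromosome V, the autosome with the lowest density (41.8 per Mb), had the autosomal value nearest to X in each of these gap measures. Whether the spacing on X differs beyond its density was not tested. When a replicate 2 overlap alone was enough, the share from 1 to 20 kb on X was 37.6%, still below the 39.2 to 47.6% of the autosomes. It was 47.5% among all series-wide X peaks, within the 44.2 to 53.1% of the autosomes. The shortest gap was 51 bp on X and also 51 bp on the autosomes.

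**Figure D2:**
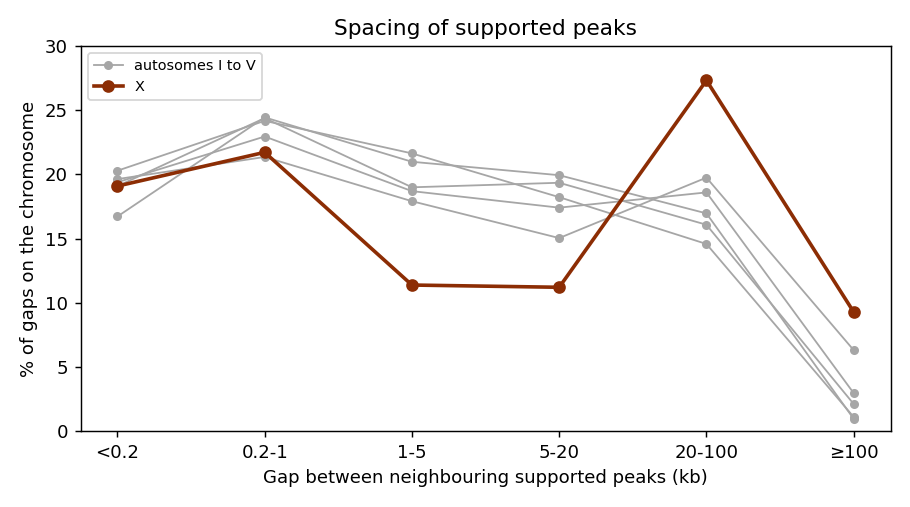
Lines give the share of gaps between neighbouring supported peaks (y axis, % of gaps on a chromosome) in 6 classes of gap length (x axis, kb) for X and for the autosomes I to V. X is level with the autosomes under 1 kb, below all of them from 1 to 20 kb and above all of them from 20 kb.

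Gaps over 100 kb numbered 53 on X and took 43.7% of its length. That share ranged from 10.8 to 47.1% on the autosomes, so X lay within their range. The longest was X 1490162 to 1846332 (356171 bp), with 18 series-wide, 2 replicate 1 and 12 replicate 2 peaks inside it. The highest series-wide score there was 62.78. The second, X 9516604 to 9809778 (293175 bp), held 11 series-wide peaks and 8 replicate 2 peaks and no replicate 1 peak. X 13227319 to 13515529 (288211 bp) held 8 replicate 2 peaks and 1 replicate 1 peak, and X 15861386 to 16140000 (278615 bp) held 15 and 1. The shortest of the 5, X 6820409 to 7065856 (245448 bp), held 2 and 1. These stretches therefore lacked series-wide peaks that met both lists and did not lack peaks. Whether replicate 1 and replicate 2 peaks overlapped each other inside them was not tested. All 5 held more replicate 2 than replicate 1 peaks, as did X as a whole, with 894 and 416.

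Clusters were defined as 3 or more supported peaks with neighbours at most 5 kb apart. On X, 326 of 572 peaks lay in 73 clusters (57.0%, Wilson 95% interval 52.9 to 61.0%), against 67.3% on all 6 chromosomes and 64.7 to 73.3% on each autosome. Peaks with no neighbour within 5 kb made up 27.3% on X (156 peaks) and 13.5 to 19.3% on the autosomes (exact permutation p = 0.167 for both shares, adjusted 0.299). X had 4.12 clusters per Mb, and the autosomes had 5.94 to 12.7. These values also depend on the density of supported peaks, and X was not compared with the autosomes at equal density. A cluster on X had a median of 4 peaks and a median length of 5449 bp, and the peaks covered a median of 56.6% of it. Of the 73, 44 had a single replicate 1 partner and 42 a single replicate 2 partner. Many clusters were thus several narrow series-wide peaks within the same broad replicate peak. This was not particular to X. Replicate 1 partners with 3 or more members made up 16.6% on X and 18.7% on the autosomes. In replicate 2 they made up 16.4% and 16.7%.

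Clustered peaks had lower scores than isolated ones. On X the median series-wide score was 8.02 in clusters and 31.6 for peaks alone, and the median widths were 512 and 589 bp. The autosomes had the same order, with 15.57 and 35.06 for the scores and 553 and 608 bp for the widths. In a separate setting, only supported peaks at or above the median series-wide score were kept and clusters were drawn again among them. Then 17.7% of the kept X peaks lay in a cluster, against 37.9 to 50.1% on the autosomes. These shares do not count how many such peaks lay in the clusters defined above.

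The cluster with the most peaks was X 2038715 to 2046719, with 10 peaks in 8005 bp. Their scores ran from 1.63 to 88.99. All 10 lay in the same replicate 1 peak, scored 2301.3, and they had 3 replicate 2 partners with scores up to 3100. X 4610365 to 4618146 and X 10180539 to 10188199 held 9 peaks each. The former had a low replicate 1 score, 224.02, beside a replicate 2 score of 3100, and the latter had 3008.86 and 3100. X 2697500 to 2706040 and X 2872151 to 2879615 held 8 each, with replicate 1 scores of 2133.41 and 3071.4. Of these 5 clusters, 4 had a replicate 1 score above 2000, and all 5 had a replicate 2 partner at 3100. The longest cluster was X 4960492 to 4972452, at 11961 bp with 4 peaks and partners at 3100 in both lists. It was followed by X 11294387 to 11306099, X 15602830 to 15614302, X 12985450 to 12996094 and X 13946381 to 13956641, of 11713, 11473, 10645 and 10261 bp. Among the 5 longest, X 12985450 to 12996094 stood apart for low scores in every list, with a highest series-wide score of 24.62 and highest partner scores of 224.89 and 418.85.

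Supported X peaks had a slightly lower median width and a lower median score than those of each autosome, the width only under some settings of support. The median width was 545.5 bp (interquartile range 345 to 824 bp) on X and 558 to 592 bp on the autosomes. On X the series-wide score had a median of 18.17, whose interquartile range was 5.315 to 41.8, and 21.2 to 23.4 on the autosomes. The 25th percentile, 5.315 on X, lay below the autosomal range of 7.26 to 7.60. The exact permutation p was 0.167 for the score (adjusted 0.299) and 0.333 for the width (adjusted 0.434). X was best represented at the low end. When all supported peaks were split into 5 equal groups by score, X held 12.0% of the lowest group and 8.20% of the highest. The X median score was 11.32 when a replicate 2 overlap alone was enough, again below the autosomes (13.1 to 14.7). The X median width was 516 bp when a replicate 1 overlap alone was enough, within the autosomal 497 to 540 bp. Among supported peaks at or above the median series-wide score, the X medians were 683 bp and 35.2, both within the ranges of the autosomes (671 to 719 bp and 33.1 to 36.8).

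Broad peaks were about as frequent on X as elsewhere. Peaks wider than 2000 bp numbered 24 of 572 (4.20%, Wilson 95% interval 2.84 to 6.17%), against 4.76% on all 6 chromosomes and 3.40 to 5.56% on each autosome. X 16929241 to 16943487 was the widest, at 14247 bp, with a score of 120.44 and partners at 3100 in both lists. It made a pair with X 16943618 to 16944586, 130 bp away, which scored 108.20 with a replicate 1 score of 3100 and a replicate 2 score of 992. A single replicate 1 peak of 16194 bp held both, and the replicate 2 list met the wider one with 3 peaks. The second widest, X 6616828 to 6622924 at 6097 bp, shared the top score of 120.44, had partners at 3100 in both lists and stood alone, with the next supported peak 100267 bp to its right.

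The other 8 of the 10 widest measured 2911 to 3701 bp. They were X 1443163 to 1446863, X 3396903 to 3400456, X 10200123 to 10203672, X 6088521 to 6091951, X 12168541 to 12171961, X 4961284 to 4964683, X 4523689 to 4526899 and X 14581682 to 14584592. Their scores ranged from 56.18 to 102.13. All 10 of the widest had a replicate 2 score of 3100 and 9 had a replicate 1 score of 3100, the exception being X 14581682 to 14584592 with 2390.89. Of all 24 X peaks wider than 2000 bp, 17 (70.8%) reached 3100 in replicate 1 and 23 (95.8%) in replicate 2, against 62.8 to 75% and 83.7 to 93.8% on the autosomes. The lowest of the 24 in both lists was X 16140001 to 16142634, with 1100.16 and 2694.8. Width and score were related across the 572 peaks with a Spearman rho of 0.66, and of 0.58 to 0.65 on the autosomes, as a description over peaks that share lists and neighbours.

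Of the 10 highest-scored supported peaks on X, 5 were narrower than 500 bp. In a wider set, the supported peaks scoring 68.7 or more, 8 of 48 on X were this narrow (16.7%), within the autosomal range of 7.80 to 17.9%. X 16564498 to 16564976 (479 bp) scored 117.14, with 1233.85 in replicate 1 and 3100 in replicate 2. X 2328802 to 2329294 (493 bp) scored 113.66 and was the only one of these 5 at 3100 in both lists. X 14324131 to 14324568 (438 bp) scored 112.69, with 395.5 and 3100. X 16721729 to 16722155 (427 bp) scored 108.96, with 366.33 and 3100, and X 16566371 to 16566790 (420 bp) scored 103.69, with 684.27 and 3100. All 5 were at 3100 in the replicate 2 list, and 4 were below it in the replicate 1 list. Among the narrow X peaks of the wider set, 7 of 8 were at 3100 or more in replicate 2 and 1 of 8 in replicate 1. Narrow autosomal peaks scoring 68.7 or more were alike, with 58 of 62 and 11 of 62. The first and the last of the 5 narrow X peaks named above lay within the same cluster of 3 peaks. The remaining 5 of the 10 were both widest peaks, X 16943618 to 16944586, X 3396903 to 3400456 (score 102.13) and X 2872151 to 2873403 (1253 bp, score 100.69, replicate scores 3071.4 and 3100).

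**Figure D3:**
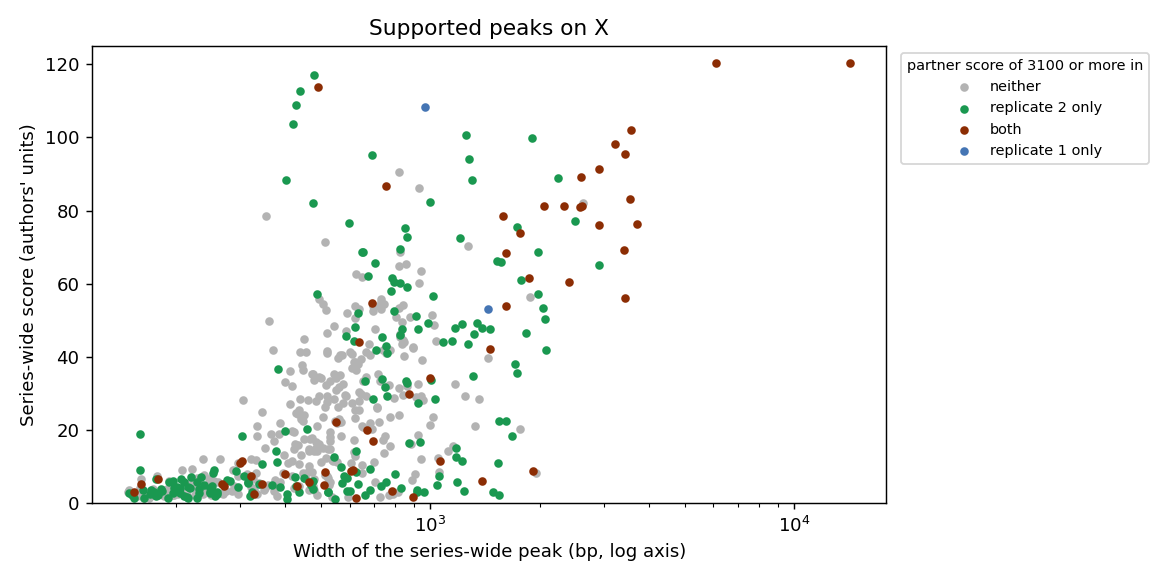
Each point is 1 of the 572 supported X peaks, with its width (x axis, bp, log axis) and its series-wide score (y axis, the authors' units), coloured by which replicate partner scored 3100 or more. A narrow group under 500 bp with scores above 100 stands apart from the broad peaks over 2000 bp, where partners at 3100 in both lists are common.

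Counted per supported peak, the replicate 1 scores were low on X and the replicate 2 scores high, and the latter did not hold when each replicate 2 peak was counted once. A score of 3100 recurs in both replicate lists and acts as an upper level, exceeded by few peaks. On X, 57 of 572 supported peaks had a replicate 1 partner of 3100 or more (9.97%, Wilson 95% interval 7.77 to 12.7%), against 17.9% on all 6 chromosomes and 16.5 to 22.3% on each autosome. With replicate 2 partners the X share was 246 of 572 (43.0%, 39.0 to 47.1%), against 38.2% on all 6 chromosomes and 33.8 to 40.1% on each autosome. X was the lowest chromosome in the former and the highest in the latter (exact permutation p = 0.167 and 0.333, adjusted 0.299 and 0.434). Supported peaks at this level in replicate 2 and not in replicate 1 numbered 191 on X (33.4%), against 20.6 to 26.6% on the autosomes. The reverse was seen for 2 X peaks (0.350%) and for 209 autosomal ones (3.78%).

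**Figure D4:**
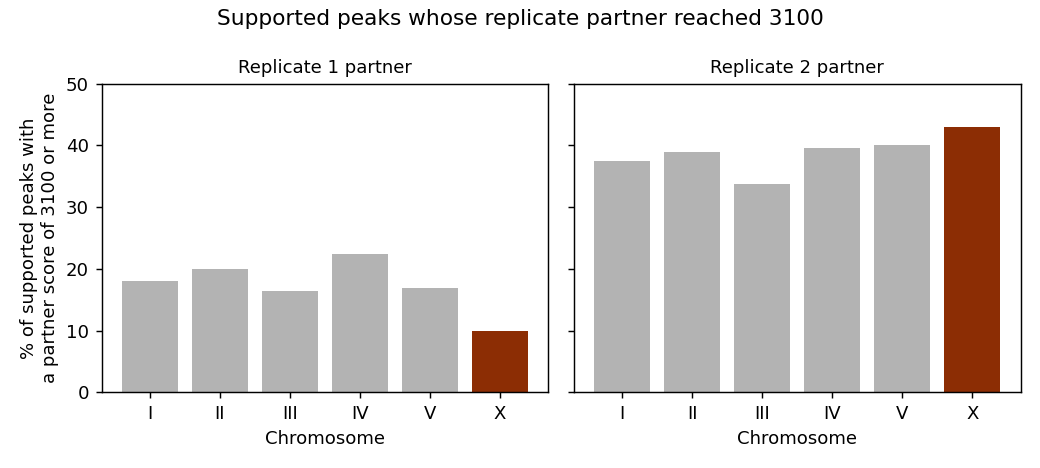
Bars give the share of supported peaks (y axis, %) whose replicate 1 or replicate 2 partner scored 3100 or more, for each chromosome (x axis). X is the lowest chromosome for replicate 1, at 9.97%, and the highest for replicate 2, at 43.0%.

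On X the replicate 1 partners had a median score of 713, and on the autosomes 747 to 1001. For replicate 2 the median was 2649 on X and 1516 to 1898 on the autosomes. These medians count a partner once for each of its members. With every partner counted once, the replicate 1 median was 460 on X and 549 to 647 on the autosomes (exact permutation p = 0.167, adjusted 0.299). The replicate 2 median was then 937 on X, within the autosomal range of 763 to 986 (exact permutation p = 0.5, adjusted 0.581). The share of partners at 3100 or more was then 8.12% on X and 9.45 to 13.1% on the autosomes in replicate 1. In replicate 2 it was 27.9% on X, within the autosomal 20.0 to 28.7%. Over all peaks of each list, supported or not, X had the lowest median score in both, with 324 against 404 to 448 in replicate 1 and 311 against 392 to 475 in replicate 2. The low replicate 1 scores of X were present either way, and the high replicate 2 scores only where partners with many members count repeatedly. Each list comes from 1 library, so these values compare 2 lists.

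Of all series-wide peaks on X, 572 of 1372 were supported (41.7%, Wilson 95% interval 39.1 to 44.3%), against 49.4% on all 6 chromosomes and 48.1 to 52.8% on each autosome. The share met by a replicate 2 peak only was 33.5% on X (460 peaks) and 20.7 to 24.2% on the autosomes. The share met by neither list was 15.4% on X and 13.0 to 16.3% on the autosomes.

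The lower support on X was seen at some scores and not at others. In quartile 1 of the series-wide scores, 1.30 to 4.51, 32.2% of X peaks were supported, within the autosomal range of 29.2 to 34.2%. Support in quartile 2, 4.52 to 9.82, was 28.1% on X, within the autosomal 26.9 to 32.4% (exact permutation p = 0.333, adjusted 0.434). In quartile 3, 9.83 to 26.24, the share was 32.8% on X (114 of 348) and 41.6 to 53.9% on the autosomes. In quartile 4 it was 81.4% (237 of 291) and 87.0 to 90.5%. Replicate 1 met 49.1% of X peaks in quartile 3 (Wilson 95% interval 43.9 to 54.4%) and 59.5 to 69.0% of autosomal ones. Replicate 2 met 77.3% of the same X peaks (72.6 to 81.4%), against 73.0 to 76.3%. In quartile 1 replicate 1 met 41.3% on X and 42.3 to 46.0% on the autosomes (exact permutation p = 0.333, adjusted 0.434). In quartile 2, replicate 1 again met a smaller share on X than on any autosome, 35.4% against 40.6 to 52.6%, and replicate 2 met a larger one, 65.9% against 57.4 to 64.6%. The exact permutation p was 0.167 in each of the other comparisons given for quartiles 2 to 4 (adjusted 0.299).

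**Figure D5:**
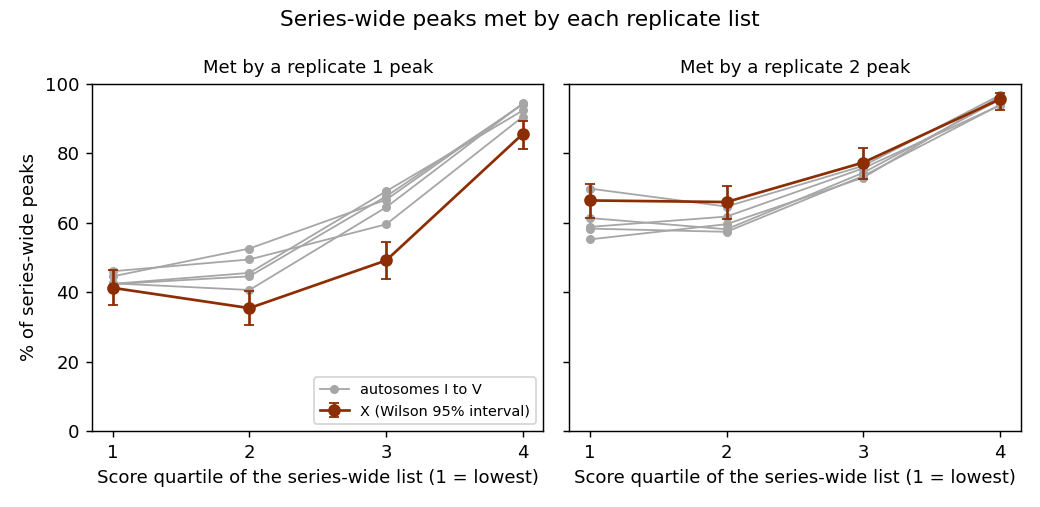
Points give the share of series-wide peaks (y axis, %) met by a replicate 1 peak or by a replicate 2 peak in each quartile of series-wide score (x axis), for X with Wilson 95% intervals and for the autosomes I to V. With replicate 1, X lies below the autosomes in all 4 quartiles, by the least in quartile 1, and with replicate 2 it lies among or just above them.

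Few X peaks sat at the edge of the rule. Of the 572, 531 (92.8%) lay wholly within peaks of both lists. The smallest overlaps were 8 bp, at X 1119591 to 1119749 with replicate 1, and 11 bp, at X 6105471 to 6105659 with replicate 2. Outside the rule, the nearest was X 10994676 to 10994827, which met replicate 1 and lay 26 bp from a replicate 2 peak. Only 7 of the 800 X peaks outside the rule were within 100 bp of meeting it. These edge counts were made on X alone, so they do not set X apart from the autosomes. With a replicate 2 overlap alone the set would hold 1032 X peaks (58.2 per Mb), and with a replicate 1 overlap alone 701 (39.6 per Mb). The choice of lists therefore moves the count far more than the required overlap, which at 50% of the series-wide peak left 561.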

How the data were processed

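Peak lists of T26A5.5 ChIP-seq were analysed from 2 ChIP samples, with 2 input samples that have no deposited list. Per the labels' protocols, chromatin of ground embryos was fixed with 1% formaldehyde for 10 min and sonicated, and input and ChIP libraries were prepared by different protocols. Per the submitters' processing notes, BWA and ce10 were used. Per the file headers, coordinates are WormBase WS220, and per the source column the replicate lists came from MACS and the series-wide list from MACS v2. For thresholds, controls and pooling, no source used here gives the settings. The deposited score of each peak has no stated unit and was compared within a list only. Without read counts, depth is unknown, and intervals cover counting error only, over peaks that are not independent.

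Overlaps used 1-based coordinates, bins used peak midpoints, and gaps count bases between neighbours. Regions named are the 10 highest-scored and 10 widest supported X peaks, the 5 clusters with most peaks, and the 5 longest clusters and gaps. The 5 densest and sparsest 250 kb bins are also named, with ties included. The members and the quantities compared were chosen with earlier results of these data known. Steps were tested on simulated lists. No genome of this build was used, so peaks were not assigned to genes and no sequence is shown; the WBcel235 gene table gave only the name jhdm-1. Computations used statsmodels 0.14.6, scipy 1.17.1, pandas 2.3.3, numpy 2.4.6 and matplotlib 3.10.9 in Python 3.11.15.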

Additional observations from a re-analysis of the deposited data

Results flagged for a closer look

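Replicate peaks on X that met no series-wide peak were outside the comparisons, and no control list was at hand to set them against. They numbered 9 of 416 in replicate 1 (2.16%, against 0.740% on the autosomes) and 256 of 894 in replicate 2 (28.6%, against 16.0%). The highest in replicate 1 were X 108718 to 114745 (6028 bp, score 3100), X 289470 to 295751 (6282 bp, score 2594.36) and X 14907592 to 14909774 (2183 bp, score 2441.91). The first 2 lie in the left end of X that has no supported peak. In replicate 2 the highest was X 2362707 to 2363565, with a score of 1201.96. These were chosen after their values were seen.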

How the results depend on the processing

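Most X values moved beyond their 95% intervals (29 of 43 alternative values), chiefly where support was relaxed or low scores were left out. With 50% of each peak covered, all stayed within them. Some of the 43 redefine the gap, cluster or bin, or drop low scores, and so shift the value by construction. The intervals also treat peaks as independent, so the tally is a description and not a measure of robustness. Across settings that needed only the other replicate, the X share of supported peaks was 9.27 to 11.4%, the median width 398 to 516 bp, the median score 11.32 to 14.95, the share of gaps under 1 kb 34.8 to 39.0%, the share in clusters 55.2 to 59.5% and the share of empty 250 kb bins 0% in both; the lower width and score, and the higher X share, came without replicate 1. With all series-wide peaks the X share was 11.1%, the median width 344 bp, the median score 8.715, gaps under 1 kb 31.2% and empty bins 0%. Keeping only peaks at or above the median score they were 8.40%, 683 bp, 35.2 and 10.9%, with 17.7% in clusters redrawn among them. Gaps under 500 bp and 2 kb made up 31.0% and 46.2%. Clusters joined at 2 and 10 kb held 46.9% and 61.5%. Empty bins were 15.7% at 100 kb and 0% at 500 kb. The cause was not tested. X remained below all 5 autosomes in density and in the share in clusters under all 5 settings of support and score. The same held under 4 of 5 for median score, gaps under 1 kb and gaps from 1 to 20 kb. For median width it held under 3 of 5. These comparisons and the gap class from 1 to 20 kb were chosen after the data were seen. No paired analysis was possible because the inputs have no values among the lists. Without depth, an uncalled site on X is not a site shown to be unbound.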

Other observations

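The 460 X peaks met by replicate 2 and not by replicate 1 were narrower and lower-scored than the supported ones, at medians of 281 bp and 7.94. The 2463 autosomal peaks of the same kind were also narrower and lower-scored than the supported autosomal ones, at 296 bp and 6.71. The median replicate 2 score was 828 for the X peaks and 597 for the autosomal ones. Of the X peaks, 89 had a replicate 2 partner of 3100 or more (19.3%, against 17.4% on the autosomes). These scores count a replicate 2 peak once for each series-wide peak it met. No value with each replicate 2 peak counted once is given for this class. The highest-scored of the 460 X peaks were X 1471142 to 1471462 (72.18), X 3111692 to 3112261 (64.13) and X 2632724 to 2633052 (62.84). Their replicate 2 scores were 2577.34, 3100 and 2611.64. The 129 X peaks met by replicate 1 only had a median series-wide score of 10.98, and the 1335 on the autosomes had 8.20. These values were not tested.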
